A study of Drosophila melanogaster with 2 samples.

Results

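The genes described here encode structural proteins of the Drosophila melanogaster eggshell and the yolk proteins, all of which are made in the mother. The list holds 10 genes, taken by symbol. They are the vitelline membrane genes Vm26Aa, Vm26Ab, Vm32E, Vm34Ca and psd (palisade), the chorion genes Cp36 and Cp38, and the yolk protein genes Yp1, Yp2 and Yp3. Of these, 9 were represented by a probe set that names 1 gene, among 10843 genes so represented in all. Vm26Ab was not analysed here. Each of the 9 genes had a single probe set, so no value below could be set against another probe set of the same gene.

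The data are MAS5 signals from 1 array of yw embryos (the yw array) and 1 array of embryos labelled tdf (called the tdf array). The yw stock carries the body colour mutation yellow and the eye colour mutation white. The tdf embryos were homozygous for a mutation in tdf, now called apontic (apt), which encodes a transcription factor, and were picked by means of the balancer chromosome CyOact-GFP. Both kinds of embryo were incubated for 16 h at 25 °C from the time the eggs were laid. The sources used here give neither the allele, nor the number of embryos pooled, nor the genetic background of the tdf stock, so a stock difference and an effect of tdf cannot be told apart. With 1 array per genotype no difference was tested, and every value is a single measurement.

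The fly eggshell is built by the follicle cells, a somatic epithelium around the oocyte, which first secrete the vitelline membrane and then the chorion. The follicle cells are shed when the egg leaves the ovary. Yolk proteins are made in the adult female fat body and in follicle cells and are taken up by the oocyte through the receptor Yolkless, so a laid egg holds the proteins without needing their mRNA. High signals of these genes in an embryo extract would therefore be a sign of maternal tissue, such as ovaries, and the genes were read for that purpose.

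A signal was read against a floor of 97.3, the 40th percentile of all gene probe sets over both arrays, and a gene below it was not taken as measured on that array. On the yw array 4 of the 9 genes were at or above the floor, where 64.5% of all genes were. On the tdf array it was 6 of 9, where 66% of all genes were, and 4 genes were above the floor on both arrays, against 60% of all genes. The 9 signals ran from 26.3 to 361 on the yw array, with a median of 86.9, and from 22.0 to 514 on the tdf array, with a median of 102. For comparison, all 14010 probe sets had median signals of 153 (yw) and 154 (tdf) and highest signals of 56842 and 73038. No eggshell or yolk protein gene thus reached a signal above 514 on either array. Signals of different probe sets depend on their probes, so the genes are not ranked by level.

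**Figure D1:**
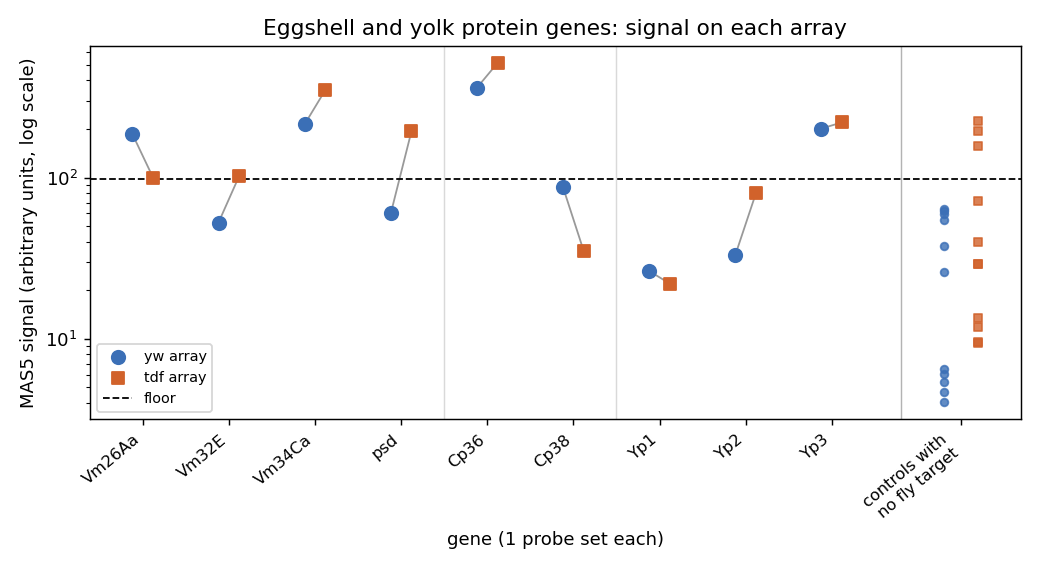
MAS5 signal (arbitrary units, log scale) of the 9 eggshell and yolk protein genes on the yw array (circles) and the tdf array (squares), with the signals of 11 control probe sets with no target in fly RNA at the right and the floor of 97.3 as a dashed line. Cp36, Vm34Ca, Yp3 and Vm26Aa lie above the floor on both arrays, Vm26Aa only just on the tdf array, and Yp1, Yp2 and Cp38 lie below it on both.

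Of the 4 vitelline membrane genes analysed, 2 were above the floor on both arrays and 2 on the tdf array alone, and 1 was lower and 3 were higher on the tdf array. Vm26Aa, which encodes a major vitelline membrane protein, gave 186 with yw RNA and 99.9 with tdf RNA. That was 1.86-fold lower on the tdf array (log2 ratio -0.90), with the lower signal just above the floor. In extracts of whole embryos, fewer cells that hold a transcript and less of it per cell cannot be told apart. Vm34Ca, which encodes another structural protein of this layer, had 214 and 349, which was 1.63-fold higher (log2 ratio 0.70).

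The gene psd encodes a protein needed to assemble the vitelline membrane. Its signal was 59.998 on the yw array, below the floor, and 194 on the tdf array, so its ratio is a bound of at least 1.99-fold higher (log2 ratio at least 0.99). The bound was just under the 2-fold limit used below and rests on where the floor was set. With a floor at the 25th percentile, a signal of 43.8, the log2 ratio of psd was 1.69. Vm32E, whose protein is secreted by the follicle cells, had 52.6 and 102, the second just above the floor, which leaves a bound of at least 1.05-fold.

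Of the chorion genes, which encode proteins of the outer eggshell, Cp36 was above the floor on both arrays and Cp38 on neither. Cp36 gave signals of 361 and 514, 1.43-fold higher in tdf (log2 ratio 0.51). Cp38 gave 86.9 for yw and 35.0 for tdf. Cp36 and Cp38 are next to each other in the genome and are amplified together in the follicle cells, where both are expressed at high levels. In these extracts a signal above the floor was seen for the first gene and not for its neighbour.

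Of the yolk protein genes, Yp1 and Yp2 were below the floor on both arrays and Yp3 above it on both. Yp1 gave 26.3 for yw and 22.0 for tdf. Yp2, its direct neighbour, which shares regulatory DNA with it, had 33.1 and 80.2. No ratio was taken for either gene. Yp3, which lies elsewhere on the same chromosome, had 201 and 220, a ratio of 1.09-fold (log2 ratio 0.13). The Yp3 signals differed least between the arrays among the 4 genes above the floor on both.

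Of the 6 genes above the floor on at least 1 array, the 4 above it on both were less than 2-fold apart. For psd and Vm32E the bounds were under 2-fold, which leaves unknown whether they were 2-fold higher, so 0 of 6 genes were past the limit by the rule of size. Of all 7639 genes measured in this way, 3.6% were past that limit in the higher and 6.19% in the lower direction, so that fewer than 1 gene in 6 would be past either limit and the count of 0 sets these genes apart from no others. Among the 4 genes above the floor on both arrays, the log2 ratio was above 0 for Vm34Ca, Cp36 and Yp3 and below 0 for Vm26Aa. The genes psd and Vm32E passed the floor on the tdf array alone, so their bounds could only be above 0. With bounds at their lowest size, the median log2 ratio of the 6 genes was 0.32, against 0.03 over all measured genes. It was also 0.32 over the 4 genes above the floor on both arrays.

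With no replicates, the spread within the arrays was used as a measure of error. For 278 genes with 2 or more probe sets above the floor on both arrays, log2 ratios of probe sets of the same gene had an SD of 0.53. Among the 500 measured genes closest to each gene in mean signal, the 2.5th to 97.5th percentile of the log2 ratio ran from -1.14 to 1.12 for Vm26Aa, from -1.74 to 1.18 for Vm34Ca, from -1.29 to 1.24 for Cp36 and from -2.01 to 1.26 for Yp3. Vm34Ca, Cp36 and Yp3 thus lay within the spread of genes of similar signal. At the mean signal of Vm26Aa the floor keeps any ratio inside its range, so its place there shows nothing. The ratios of psd and Vm32E are lower bounds, so they cannot be placed in such a range. The spread describes these arrays and not the variation between embryos.

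**Figure D2:**
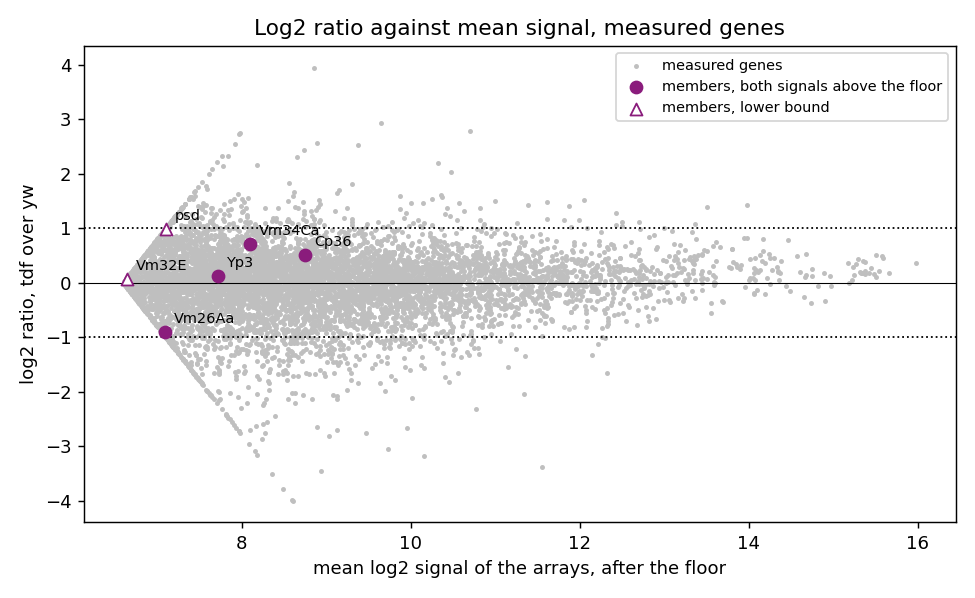
Log2 ratio (tdf over yw) against the mean log2 signal of both arrays after the floor, for the 7639 measured genes (grey) and the 6 measured eggshell and yolk protein genes (filled where both signals were above the floor, open triangles for lower bounds). The 4 filled points lie between the dotted lines that mark a 2-fold difference, and the triangles for psd and Vm32E mark the least their ratios can be.

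Control probe sets with no target in fly RNA show how much signal can remain without a transcript. There were 11 of them, 4 for yeast genes, 4 for mouse genes and 3 for a bacterial tryptophan gene. On the yw array they ran from 4.03 to 64.2, and none reached the floor. On the tdf array they ran from 9.46 to 223, and 3 yeast probe sets, at 157, 195 and 223, were above the floor. On the yw array 5 of the 9 eggshell and yolk protein genes, Cp38 among them, exceeded the highest of these controls, where 72.3% of all genes did. On the tdf array only Cp36 and Vm34Ca did, 2 of 9, where 45.8% of all genes did. The psd signal of 194 and the Yp3 signal of 220 on that array were below the highest control. The part of the higher yeast control signals in the ratios of psd and Vm32E was not tested.

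Genes that neighbour each other in the RefSeq gene order, looked at after their values were seen, gave mixed values. Vm26Aa is followed by psd, and the signal of the first was lower on the tdf array while that of the second was higher. On its other side lies Vm26Ac, a further vitelline membrane gene, with 4.30 for yw and 12.3 for tdf. Cp36 is preceded by the eggshell gene Cp7Fc, with 10.7 and 131, and Cp38 is followed by otu, a gene needed for oogenesis, with 16.9 and 32.7. The chitinase family gene Cht6, next to Yp2, had 2130 and 2266, both far above the floor, beside a yolk protein gene that was below it on both arrays.

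Other genes of the eggshell were read in the same way. Of 22 further eggshell genes, 17 were on the array. Of these, 9 were above the floor on at least 1 array, against 7639 of all 10843 genes. Above it on both were 4, against 60% of all genes. The 4 above it on both were less than 2-fold apart, and the other 5 had bounds under 2-fold, which do not show how far apart they were. With bounds at their lowest size the median log2 ratio was 0.19. The chorion gene Cp18 gave 318 for yw and 456 for tdf (1.43-fold higher). Cp16, from the same chorion gene cluster, had 177 and 34.0, at least 1.82-fold lower. The eggshell peroxidase gene Pxt, whose enzyme acts in prostaglandin synthesis during follicle development, had 213 and 155. The gene tsl, which encodes the torso-like protein that follicle cells at the ends of the oocyte deposit in the vitelline membrane, had 245 and 280. The further members were at or below 142 on both arrays. Among them were the chorion genes Cp15, at 112 and 85.6, and Cp19, at 45.0 and 39.7, and the eggshell gene dec (defective chorion), at 12.8 and 11.0, all named after their values were seen.

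Follicle cell genes outside the eggshell are also used in embryonic tissues. Of 8 listed genes 6 were on the array. All 6 were measured, against 7639 of all 10843 genes. The 5 with both signals above the floor were less than 2-fold apart. With stl at its bound the median log2 ratio was -0.34. The border cell transcription factor gene slbo had 717 and 884, and the homeobox gene mirr had 199 and 252. The sulfotransferase gene pip, which marks the ventral eggshell and also acts in salivary glands, had 219 and 136, and the metalloprotease gene stl had 134 and 46.0, a bound of at least 1.38-fold lower. The transcription factor gene br had 245 and 136 with its probe set of highest mean signal, but 106 and 242 with another, the opposite direction.

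Transcripts that the germ line makes and loads into the egg were counted beside the eggshell genes. Of 31 oocyte and nurse cell genes, 29 were on the array. On the yw array 18 were at or above the floor, where 64.5% of all genes were. On the tdf array it was 12, where 66% of all genes were. At least 2-fold lower were 10 of the 18 measured, against 6.19% of all measured genes. Of the 18, 6 were above the floor on the yw array alone, so their bounds could only be lower. Of the 12 above it on both arrays, 6 were at least 2-fold lower. At least 2-fold higher were 0, against 3.6%. With bounds at their lowest size the median log2 ratio was -1.04, against 0.03 over all measured genes. Among the eggshell and yolk protein genes 0 of 6 were at least 2-fold lower, against the same 6.19%. Vm26Aa was lower by less than that limit, 1.86-fold. The lists were chosen with earlier results of these data known, so they are no independent comparison, and the difference between them was not tested. The RNA-binding regulator of maternal mRNA smg gave 1528 for yw and 73.5 for tdf (at least 15.7-fold lower). The gene swa, which helps to localise bicoid mRNA in the oocyte, gave 1109 and 87.9 (at least 11.4-fold lower), while neither array put its other probe set above the floor. The mitotic cyclin genes CycB, at 9664 and 928, and CycB3, at 3423 and 378, are also used in the divisions of the embryo. The gene gcl, needed to form germ cells, had 3467 and 3941 and so did not share this difference.

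The yw array was the one on which those 10 transcripts were higher. There the summed signal of the 9 eggshell and yolk protein genes was 1221, and on the tdf array it was 1616, 1.32 times as much. All sums given here were taken without the floor, so they include signals not taken as measured, such as those of Yp1, Yp2 and Cp38. Part of the rise came from Cp36 and Vm34Ca, whose signals were above the highest control on each array. Another part came from psd, whose tdf signal of 194 was below the highest control signal of 223 on that array. The part of the higher yeast control signals in this rise was not tested. The summed signal of the 29 oocyte and nurse cell genes was 26246 and 8970, which is 2.93 times as much on the yw array. Without CycB and CycB3 the sums over 27 genes were 13159 and 7664, which is 1.72 times as much. How far ovary RNA contributed to either extract was not tested.

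**Figure D3:**
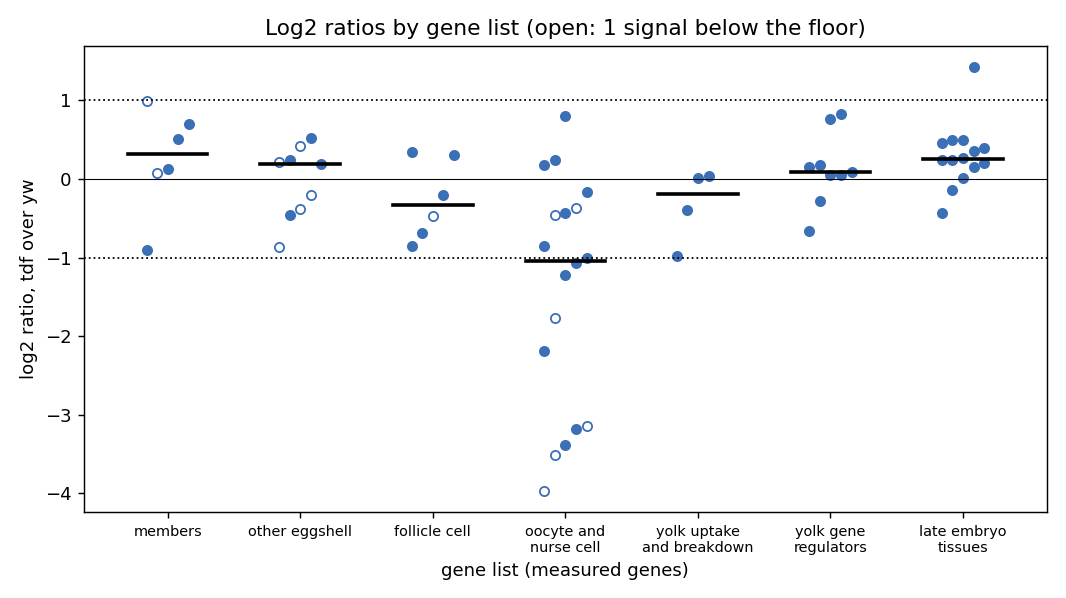
Log2 ratio (tdf over yw) of each measured gene by list, filled where both signals were above the floor and open where 1 was below it, with black bars at the medians and dotted lines at a 2-fold difference. The filled points of the eggshell and yolk protein genes (list median 0.32) and of the other eggshell genes (0.19) lie between the lines. Below them lie 10 of 18 oocyte and nurse cell genes (median -1.04), against 6.19% of all measured genes. Of these 18, 6 were above the floor on the yw array alone and could only be lower. The lists were chosen with earlier results of these data known.

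Genes that act on yolk in the oocyte and the embryo were measured as well. The yolk protein receptor gene yl, transcribed in the germ line, gave 205 for yw and 104 for tdf (1.98-fold lower, log2 ratio -0.98). The gene jagn, needed for membrane traffic during yolk uptake, had 987 and 752. The cathepsin genes CtsL1, at 7961 and 8019, and CtsB, at 9556 and 9846, encode lysosomal proteases, and their ratios were 1.01-fold and 1.03-fold. All 4 genes of this list on the array were above the floor on both arrays, against 60% of all genes. None was 2-fold apart (median log2 ratio -0.19).

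Among 10 regulators of yolk protein gene transcription, 9 were above the floor on both arrays, against 60% of all genes, and none was 2-fold apart, with a median log2 ratio of 0.10. The exception was the sex determination gene dsx, whose proteins switch the yolk protein genes on in females and off in males, at 12.1 and 13.8. The partner of the female DSX protein, ix, had 604 and 625, and her, which acts in sexual differentiation, had 751 and 619. The sex-determining gene Sxl had 274 and 464 (1.69-fold higher). The GATA factor gene srp, a regulator of fat body genes, had 115 and 205 (1.77-fold higher), and usp, which encodes the partner of the ecdysone receptor, had 203 and 129 (1.58-fold lower).

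Markers of adult tissue were read for the same purpose. Over all genes, 64.5% were at or above the floor on the yw array and 66% on the tdf array. Of 3 flight muscle genes on the array, none was above the floor on either array, and they ran from 10.2 to 56.8 on the yw array and from 3.30 to 43.3 on the tdf array. Of 10 testis and accessory gland genes, 1 was above the floor on 1 array, namely the sperm gene Mst87F, at 66.5 and 133. Of 3 adult eye genes the arrestin gene Arr1 was above it, at 141 and 281. Of 3 genes of the adult fat body or female head, Fst, a gene of cold response, had 464 and 748, the odorant-binding protein gene Obp99b had 112 and 54.4, and fit, a female-specific head gene named after its values were seen, had 7.99 and 81.9. Arr1 and Fst, above the floor on both arrays, were 1.99-fold and 1.61-fold higher, while Mst87F and Obp99b have bounds and fit has no ratio.

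The labelled tissue was checked with genes of late embryonic muscle, nerve, trachea and cuticle. All 14 of these genes on the array were above the floor on both arrays, against 60% of all genes. Their median log2 ratio was 0.26, against 0.03 over all measured genes. The cuticle gene TwdlD, at 9840 and 26409, was the 1 gene at least 2-fold higher, against 3.6% of all measured genes. Another cuticle gene, TwdlM, had 41034 and 57775, and the muscle gene Mlc2 had 40667 and 49018. The gene pio, which encodes a luminal matrix protein of the trachea, had 485 and 687. The nerve genes elav, at 252 and 228, and nSyb, at 343 and 253, had log2 ratios below 0 and were named after their values were seen. The share of all measured genes with a log2 ratio above 0 was not computed. The targeted gene apt had 979 and 1051, and the sources used here do not say whether its probe set lies within the lesion. The ratio of 3' to 5' signal of control transcripts, a sign of RNA quality, was higher on the tdf array for 3 of 4, namely 18S rRNA (14.9 and 32.2), actin (32.7 and 52.3) and eIF-4a (45.5 and 56.6), and lower for GAPDH (22.8 and 17.3). On both arrays the 3' signal was thus at least 14.9 times the 5' signal, and the part of this in the low signals was not tested. For the 6 poly(A) controls that exceeded the floor on each array the median log2 ratio was -0.91, and the part of these control differences in the ratios of the eggshell and yolk protein genes was not tested.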

How the data were processed

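The deposited intensities are linear signals, which the authors made with MAS5, per the submitters' processing notes, as 1 value for each probe set on each array. The sources used here give no version or settings. Of 14010 probe sets, 44 were controls, 12442 named 1 gene, 327 several and 1197 none. Of the probe sets naming 1 gene, 12393 had a gene ID found in the RefSeq gene table of Release 6 plus ISO1 MT. Their symbols were taken from that table, which also gave the gene order. A gene was its probe set of highest mean signal. Log2 ratios are tdf over yw with lower signals set to the floor, so a ratio with 1 such signal is a bound, and genes below it on both arrays have no ratio. The number of arrays limits the precision. No test was possible.

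The members and lists were chosen with earlier results of these data known. Named were all members and, in each other list, the 3 measured genes with the largest ratio in size and the 3 with the highest signal. Other names were chosen after their values were seen. Alternatives were floors at the 25th and 60th percentile, quantile normalisation, loess (span 0.3), median centring, the mean over probe sets, plain probe sets (names with no suffix letter), and limits of 1.5-fold and 3-fold. Added after seeing the data was a floor at the highest signal of the dark controls. The ratio step was tested on simulated data. Python 3.11.15, numpy 2.4.6, pandas 2.3.3, statsmodels 0.14.6 and matplotlib 3.10.9 were used.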

Additional observations from a re-analysis of the deposited data

How the results depend on the processing

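Many of these signals are near or below the floor, so the floor decided the counts. Cp36 alone was above every floor tried on both arrays. With the floor lowered to the 25th percentile, 7 of the 9 genes were at or above it on the yw array, against 4, and 1, psd, was at least 2-fold higher, against 0. Vm32E then had a log2 ratio of 0.96 in place of a bound of 0.07, and psd 1.69 in place of 0.99. At the 60th percentile, 1 gene of yw and 2 of tdf were at or above the floor, and the same counts, 1 and 2, held with the floor at the highest dark control signal. With a limit of 1.5-fold, 2 genes were higher and 1 lower, against 0 and 0. A lower floor or limit lets more of all genes pass as well. The shares of all genes at these other floors and limits were not computed, so these counts are not set against them. Both higher floors left 2 measured genes, Cp36 and Vm34Ca. The median log2 ratio of the measured genes ran from 0.29 to 0.61 over all settings. The log2 ratio of Vm26Aa stayed between -0.98 and -0.90 and that of Cp36 between 0.48 and 0.59 in the settings that gave a ratio. As these genes have 1 plain probe set each, both choices of probe set left their values as they were. No array could be left out. No paired analysis was possible because each genotype has 1 array.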
